A study of Mus musculus with 10 samples.

Results

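Transcripts of the cathepsin proteases were compared between aortas of male Npas2 mutant mice and of male wild types. The family comprised 10 of the 18193 genes named on the array, Ctsb, Ctsc, Ctsd, Ctse, Ctsf, Ctsh, Ctsk, Ctsl, Ctss and Ctsz, and every probe set that the platform annotation assigned to any of them was taken. That gave 22 of the 45101 probe sets on the array, a mouse whole-genome Affymetrix design (MOE 430V2) on which a probe set is a group of short probes read out as a single value per array. Where a gene had several, they are named by their brightness, the mean level over all 10 arrays, and their identifiers head the panels of the plots. The protein of Npas2 is a circadian clock factor that binds DNA as a pair with the product of Arntl. The mutant group held 5 arrays (replicates F12, F13, F18, F19 and F20) of mice labelled NPAS2 mutant on a C57Bl/6J background, and the wild-type group held 5 arrays (F11, F14_2, F15, F16 and F17) of mice labelled C57Bl/6. Both groups spent 2 weeks or more in a cycle of 12 h light and 12 h dark and then 30 h or more in constant darkness, and tissue was taken at zeitgeber time 14 (ZT14) after perfusion of the anaesthetised animal. The labels name the thoracic aorta in one place and, in another, the vessel down to beyond the femoral branching. Neither the kind of mutation nor the animals' age is given in the sources used here. Nothing states that each array held the RNA of a separate mouse. The p-values therefore weigh group differences against variation between arrays, which may not be variation between mice. The family was put together with the mutant and wild-type values already known: the brighter Ctse probe set chose it, being far lower in the mutant, so the members were chosen by the very comparison described here. Values of that comparison are therefore given for the members as a description.

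Cathepsins are proteases, most of them of the lysosome, that were named together although they use different catalytic groups. Ctse and Ctsd encode aspartic proteases of the pepsin family, while Ctsb, Ctsc, Ctsf, Ctsh, Ctsk, Ctsl, Ctss and Ctsz encode cysteine proteases of the papain family. They are made as inactive precursors, sorted to acidic compartments and activated there, and cystatins inhibit the cysteine members. In the arterial wall, macrophages and smooth muscle cells can secrete cathepsins S, K and L, which cleave elastin and collagen. Cathepsin E differs from cathepsin D in being mainly a protein of endosomes, found in gastric epithelium, immune cells and red cells rather than in all tissues.

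Promoter sequence is shown for the members that carry the binding motif of the mutated factor's family and for the member with the largest upward difference. Clock proteins of the NPAS2 type recognise the E-box CACGTG. RefSeq promoter entries of build GRCm38.p6 were matched by symbol for 7 of the 10 genes, and the 250 bases before the annotated start were searched on both strands. Ctsb, Ctse and Ctsh had no entry. The E-box stood in the windows of 3 of the 7 genes (Ctsd, Ctsf and Ctsl) and in 6.02% of all 32841 promoter windows of the same length. Ctsd held it at 2 places, 98 and 245 bases before the start, Ctsf at 79 bases and Ctsl at 236 bases. The letters GAGGAA, or TTCCTC on the other strand, a core recognised by the myeloid factor PU.1, stood in the windows of Ctsc, Ctsk and Ctss and in 23.3% of all windows. Neither motif overlapped the other, and Ctsz held neither. In the sequences, written 5′ to 3′ in the direction of transcription, capitals mark the E-box. The regions are chr7:142387828-142388077 on the minus strand for Ctsd, chr19:4854915-4855164 on the plus strand for Ctsf, chr13:64370739-64370768 on the minus strand for Ctsl and chr2:174439040-174439289 on the minus strand for Ctsz. For Ctsl only 30 bases are shown, because its window overlaps the annotated span of the gene, as does that of Ctsc. The motifs counted in both of these windows may therefore lie within the gene and not before it.
Ctsd: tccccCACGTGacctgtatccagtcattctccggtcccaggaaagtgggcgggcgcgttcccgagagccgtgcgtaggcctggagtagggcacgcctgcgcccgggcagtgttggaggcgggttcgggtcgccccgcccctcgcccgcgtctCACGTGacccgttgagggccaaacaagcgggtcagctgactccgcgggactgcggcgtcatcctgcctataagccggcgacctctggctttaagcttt
Ctsf: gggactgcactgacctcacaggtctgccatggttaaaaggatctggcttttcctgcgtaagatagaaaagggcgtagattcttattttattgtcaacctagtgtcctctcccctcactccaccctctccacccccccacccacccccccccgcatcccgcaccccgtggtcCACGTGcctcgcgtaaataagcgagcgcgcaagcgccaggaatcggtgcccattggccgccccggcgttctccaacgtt
Ctsl: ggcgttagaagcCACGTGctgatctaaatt
Ctsz: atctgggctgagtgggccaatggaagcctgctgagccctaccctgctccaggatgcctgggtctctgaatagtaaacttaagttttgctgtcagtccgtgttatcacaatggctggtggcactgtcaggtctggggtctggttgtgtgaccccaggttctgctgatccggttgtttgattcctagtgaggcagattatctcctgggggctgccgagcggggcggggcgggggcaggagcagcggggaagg
The windows with the E-box belong to genes whose brightest probe sets had log2 differences, mutant minus wild type, of -0.01 (Ctsd), -0.05 (Ctsf) and -0.03 (Ctsl). Ctsz was shown because it had the highest difference of the family, and Ctse had no entry. A link between motif and difference was not tested. A match of letters is a description of the sequence and was not tested for binding.

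Across the family, a single probe set of Ctse was far lower in the mutant, the probe sets of Ctsz were higher, and most others differed little. All levels are the deposited log2 expression values, so a difference of 1 is a doubling. Of the 22 probe sets, 19, covering all 10 genes, exceeded the median of the array on 5 or more of the 10 arrays and were tested. Among these, 1 (5.26%) passed a limma adjusted p of 0.05 over all tested probe sets, against 48 of 22340 (0.215%) on the whole array, where 0.121% were called lower and 0.094% higher in the mutant. That 1 is the probe set that chose the family, so the share carries no weight of its own. Without it, the differences of the 18 others lay between -0.27 and 0.39, and their lowest limma adjusted p was 0.105. The mean was lower in the mutant on 13 of the 19 and higher on 6, while 57.6% of all tested probe sets were lower. The median difference was -0.03 over the 19 and -0.03 over all tested probe sets, and the median absolute difference was 0.11 against 0.10. The arrays of the groups did not overlap on 3 of the 19, 1 lower and 2 higher in the mutant, against 4.01% of all tested probe sets (2.5% lower and 1.5% higher). The 1 lower is again the probe set that chose the family. The 2 higher both belong to Ctsz and share an accession, so this share carries no weight of its own either.

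**Figure D1:**
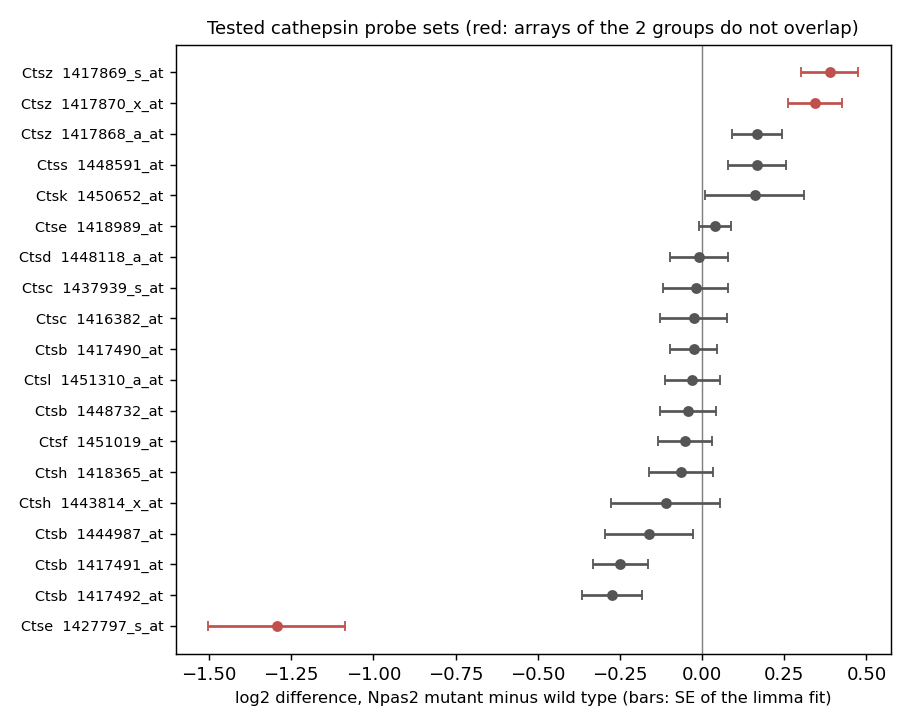
Log2 difference, Npas2 mutant minus wild type, for the 19 tested cathepsin probe sets (points) with the standard error of the limma fit (bars), in order of size. The lowest, the brighter Ctse probe set, lies at -1.29, apart from the others, which run from -0.27 to 0.39.

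Ctse was low on every mutant array by the brighter of its probe sets. Its log2 levels were 2.92, 3.18, 3.13, 2.79 and 3.09 on the mutant arrays, against 3.58, 4.58, 4.59, 4.80 and 4.03 on the wild-type arrays. All 5 mutant arrays stood below all 5 wild-type arrays, and among the wild-type arrays F11 was the lowest and F16 the highest. The means were 3.02 ± 0.16 in the mutant and 4.32 ± 0.50 in wild type (SD, n = 5 each), a difference of -1.29 ± 0.21 (SE). The probe set was above the array's median on 1 of the 5 mutant arrays and on 5 of the 5 wild-type arrays. It thus passed the filter on low values through the wild-type group, where it was high, while 4 of the 5 mutant values were at or below the array's median. In whole tissue, fewer cells of a type and less RNA per cell cannot be told apart.

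No such difference was seen on the dimmer Ctse probe set. Its log2 levels were 3.41, 3.50, 3.42, 3.41 and 3.44 on the mutant arrays, against 3.40, 3.44, 3.40, 3.33 and 3.42 on the wild-type arrays. The groups overlapped and all 10 arrays lay within a narrow range just above the array's median. The difference was 0.04 ± 0.05 (SE), with a limma adjusted p of 0.702. On the mutant arrays the mean of the dimmer Ctse probe set, 3.44, was above that of the brighter one, 3.02. Their order by brightness thus comes from the wild-type arrays. Platform identifiers ending in _s_at or _x_at mark probes that can also match other transcripts. Those of the brighter Ctse probe set and of the middle and dimmest Ctsz probe sets end in this way. So do those of the middle Ctsc, dimmer Ctsh and dimmer Ctsf probe sets. The annotation gives the Ctse probe sets different accessions, and the stretch of transcript read by each is not known here.

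**Figure D2:**
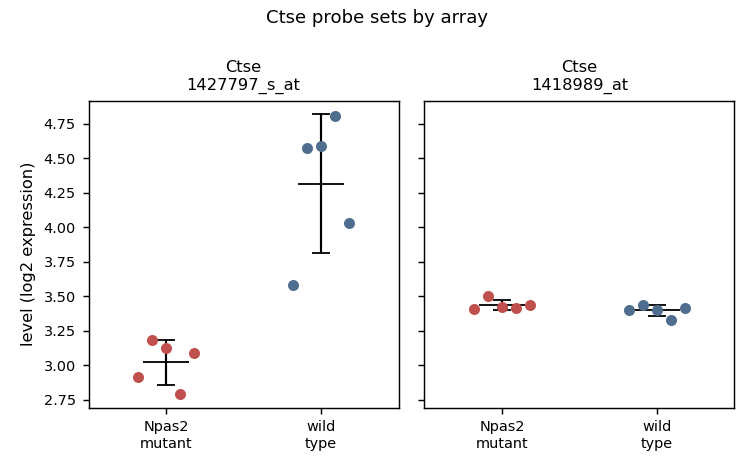
Log2 level of both Ctse probe sets on each array (points), with mean and SD (bars), for 5 Npas2 mutant arrays on the left and 5 wild-type arrays on the right. On the brighter Ctse probe set the mutant arrays lie between 2.79 and 3.18, all below the wild-type arrays, while on the dimmer Ctse probe set the groups overlap.

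The difference of the brighter Ctse probe set kept its size but not its call when arrays or models were changed. These fits reuse the arrays whose values chose the family, so the kept size carries no weight of its own. The difference lay between -1.48 and -1.17 when each array was left out in turn. It passed the limma threshold in 1 of these 10 fits, that without wild type F11 (adjusted p = 0.0211). The adjusted p was 0.0689 without wild type F14_2, 0.108 without F15, 0.0796 without F16 and 0.0709 without F17. It was 0.0986 without mutant F12, 0.0823 without F13, 0.0571 without F18, 0.0690 without F19 and 0.0907 without F20. With the mean of the macrophage markers as a covariate the difference was -1.32 ± 0.29 (SE, adjusted p = 0.232), and with that of the brown fat markers, added after the data were seen, it was -1.29 ± 0.39 (SE, adjusted p = 0.518). The errors were wider with both covariates, and the brown fat mean does not overlap between the groups, so it and the genotype can hardly be told apart. The mean of both Ctse probe sets gave a difference of -0.63 ± 0.11 (SE, limma adjusted p = 0.0457 over genes). That difference comes from the brighter probe set, whose values chose the family, because the dimmer one differed by 0.04.

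Markers of the cells in which cathepsin E is known were also read. Of 6 dendritic cell markers 1 was bright enough to test, Zbtb46, with 4.35 ± 0.07 in the mutant and 4.43 ± 0.16 in wild type (SD, n = 5 each), and Itgax, Flt3, Xcr1, Ccr7 and Cd209a fell under the filter. Of the B cell markers Ms4a1 was tested (difference 0.04), and Cd79a and Cd79b fell under the filter. Of 6 erythroid markers Alas2 (0.17 ± 0.45, SE) and Slc4a1 (0.44 ± 0.31) were tested. Their mean level ranged from 5.73 to 7.46 on the mutant arrays and from 5.45 to 6.86 on the wild-type arrays. Of 6 epithelial markers Epcam (0.09) and Krt5 (-0.04) were tested, and Cdh1, Krt14, Krt8 and Krt19 fell under the filter. None of these markers passed the limma test over all probe sets, which 0.215% of all tested probe sets passed. The groups overlapped in the mean of each list.

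Ctse and Npas2 are both annotated on chromosome 1 of GRCm38.p6, with 511 protein-coding genes between them. The genes whose levels varied most like those of the brighter Ctse probe set within the groups, by the Pearson correlation of deviations from the group means over the 10 arrays among 19098 named probe sets, were Tsn (0.92), Galnt15 (0.92), Mindy1 (0.92), Pnpla6 (0.91) and Btbd3 (0.90). None of the 5 passed the limma test between the groups, which 0.215% of all tested probe sets passed. Their differences lay between -0.24 (Galnt15) and 0.10 (Mindy1). The SD of the brighter Ctse probe set was 0.50 in wild type and 0.16 in the mutant, so the wild-type arrays weigh most in these correlations. The deviations on 10 arrays are few, and the list is a description.

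Ctsd, the lysosomal aspartic protease closest in kind to cathepsin E, was level between the groups. Its probe set had log2 levels of 9.65, 9.72, 9.62, 9.66 and 9.48 on the mutant arrays, against 9.66, 9.65, 9.91, 9.50 and 9.45 on the wild-type arrays. The mutant values all fell within the wild-type range. The difference was -0.01 ± 0.09 (SE), with a limma adjusted p of 0.972.

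Ctsz, which encodes cathepsin Z (also called X), a carboxypeptidase that removes single amino acids from protein ends, was higher in the mutant on each of its 3 probe sets, though none passed the test over all probe sets. On the middle Ctsz probe set the log2 levels were 8.82, 8.79, 9.09, 9.17 and 8.98 in the mutant, against 8.69, 8.46, 8.58, 8.51 and 8.68 in wild type. On the dimmest Ctsz probe set they were 8.80, 8.62, 8.88, 9.06 and 8.72 in the mutant, against 8.52, 8.37, 8.45, 8.55 and 8.47 in wild type. On both of these every mutant array stood above every wild-type array. On the brightest Ctsz probe set they were 10.34, 10.31, 10.58, 10.52 and 10.30 in the mutant, against 10.27, 10.15, 10.29, 10.34 and 10.14 in wild type. There the groups overlapped, with F18 and F19 standing above the rest of the mutant arrays.

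The Ctsz differences were 0.39 ± 0.09 (SE, limma adjusted p = 0.105) on the middle Ctsz probe set, 0.34 ± 0.08 (adjusted p = 0.121) on the dimmest Ctsz probe set and 0.17 ± 0.07 (adjusted p = 0.320) on the brightest Ctsz probe set. In linear terms they were 1.31-fold, 1.27-fold and 1.12-fold higher in the mutant, and all 5 mutant arrays stood above the wild-type mean on each. Groups that did not overlap with the mutant higher were found on 1.5% of all tested probe sets. The 3 probe sets are annotated to the same accession and are not independent. The middle and dimmest, which had the larger differences, carry identifiers that mark probes able to match other transcripts, and the brightest does not. Leaving out each array in turn gave differences between 0.34 and 0.43 on the middle Ctsz probe set, with adjusted p between 0.113 and 0.206.

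Macrophage markers also lay higher on average in the mutant, and a link with Ctsz was not tested. Each of the 12 markers was higher on average in mutants, with differences between 0.13 and 0.45. Of these 0 passed the limma test, against 0.215% of all tested probe sets, and 5 had an unadjusted p under 0.05, against 15.3%. The largest differences were those of Cd14, a receptor for lipopolysaccharide, at 0.45 ± 0.13 (SE, adjusted p = 0.163), and Lyz2, lysozyme, at 0.36 ± 0.12 (adjusted p = 0.212). The mean of the 12 was 7.20, 7.05, 7.29, 7.29 and 7.54 on the mutant arrays, against 6.98, 6.84, 7.17, 7.07 and 7.07 on the wild-type arrays, and the groups overlapped. The log2 of their summed signal ranged from 11.26 to 11.80 in the mutant and from 11.11 to 11.46 in wild type. With that mean as a covariate the Ctsz differences were 0.28 ± 0.11 (SE) on the middle Ctsz probe set, 0.29 ± 0.11 on the dimmest Ctsz probe set and 0.13 ± 0.10 on the brightest Ctsz probe set, with adjusted p from 0.357 to 0.643. With the brown fat mean in its place they were 0.58 ± 0.14 (SE), 0.42 ± 0.15 and 0.21 ± 0.14 in the same order of probe sets, with adjusted p from 0.485 to 0.772. The differences were thus smaller with the macrophage covariate and larger with the brown fat covariate, and kept their direction with both. The brown fat mean did not overlap between the groups, and the macrophage mean was also higher in the mutant. These fits therefore do not cleanly separate either mean from the genotype.

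**Figure D3:**
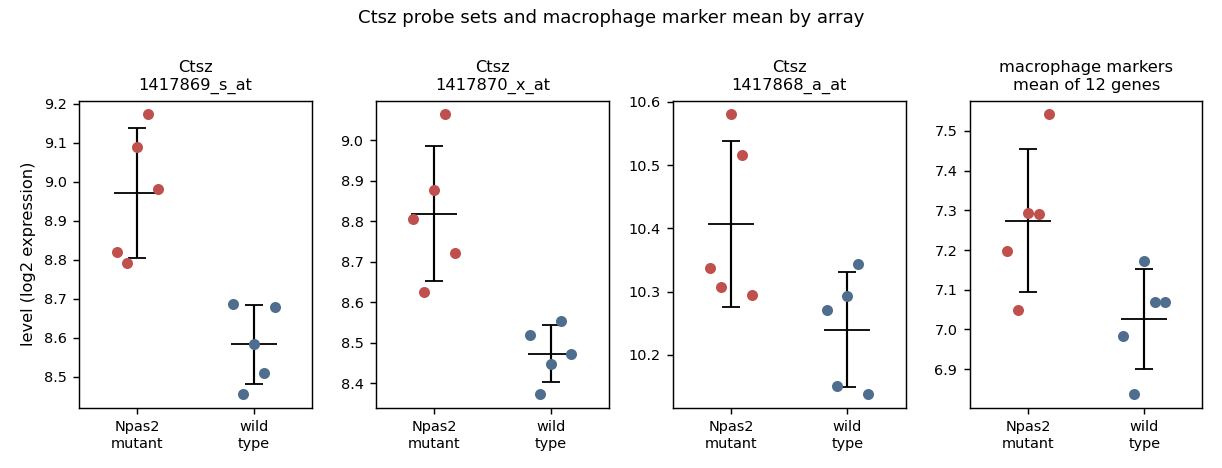
Log2 level on each array (points), with mean and SD (bars), of the 3 Ctsz probe sets and of the mean of 12 macrophage markers, for 5 Npas2 mutant arrays on the left and 5 wild-type arrays on the right. The groups do not overlap on the middle and dimmest probe sets and overlap on the brightest and in the macrophage mean.

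Ctss and Ctsk encode elastin- and collagen-cleaving endopeptidases. Cathepsin S also trims the invariant chain of class II antigen presentation, and cathepsin K is the main collagenase of osteoclasts. Ctss had log2 levels of 7.94, 7.80, 7.97, 8.20 and 8.03 in the mutant, against 7.65, 7.70, 7.90, 7.88 and 7.98 in wild type. Of the mutant arrays 4 stood above the wild-type mean, the groups overlapped, and the difference was 0.17 ± 0.09 (SE, limma adjusted p = 0.386). Ctsk had 6.44, 6.43, 6.84, 6.63 and 6.86 in the mutant, against 6.35, 6.05, 6.43, 6.84 and 6.72 in wild type, with a difference of 0.16 ± 0.15 (adjusted p = 0.619). The wild-type arrays of Ctsk spanned a wider range than the mutant arrays and held both the lowest value and one near the top. With the macrophage mean as a covariate the difference was 0.02 ± 0.10 (SE) for Ctss and -0.14 ± 0.16 for Ctsk, so that of Ctsk changed sign. With the brown fat mean it was 0.35 ± 0.15 (SE, adjusted p = 0.665) for Ctss and 0.57 ± 0.23 (adjusted p = 0.659) for Ctsk, larger than without a covariate. As for Ctsz, both marker means were higher in the mutant, so these fits do not cleanly separate them from the genotype. Both genes lie beside each other on chromosome 3 of GRCm38.p6, with 0 protein-coding genes between them.

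Genes of class II antigen processing, in which cathepsin S acts, lay close to level between the groups. Of 8 listed, 6 were tested. Among them 0 passed the limma test, against 0.215% of all tested probe sets, and 0 had an unadjusted p under 0.05, against 15.3%. The largest differences were those of the class II chains H2-Eb1 (0.06 ± 0.18, SE) and H2-Ab1 (0.06 ± 0.20), and the list median was 0.04. Whether the macrophage and class II lists differ from each other was not tested.

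Ctsb, an endopeptidase that also removes dipeptides, gave unlike values on its 5 probe sets. On the brightest Ctsb probe set the log2 levels were 11.83, 11.74, 11.64, 11.73 and 11.71 in the mutant, against 11.68, 11.91, 11.88, 11.70 and 11.61 in wild type. Its groups overlapped, with a difference of -0.03 ± 0.07 (SE, limma adjusted p = 0.879), and the next brightest Ctsb probe set had -0.04 ± 0.09 (adjusted p = 0.830). On the third Ctsb probe set the levels were 8.13, 8.26, 7.90, 7.81 and 7.87 in the mutant, against 8.28, 8.14, 8.33, 8.29 and 8.29 in wild type. On the fourth Ctsb probe set they were 7.10, 7.24, 7.52, 7.23 and 7.06 in the mutant, against 7.43, 7.47, 7.54, 7.50 and 7.46 in wild type. On each of these probe sets 4 of the 5 mutant arrays lay below all wild-type arrays, the exception being F13 on the third Ctsb probe set and F18 on the fourth Ctsb probe set.

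The differences of these 2 Ctsb probe sets were -0.27 ± 0.09 (SE, limma adjusted p = 0.202) for the third Ctsb probe set and -0.25 ± 0.08 (adjusted p = 0.203) for the fourth Ctsb probe set. Neither passed the test, and the brightest and next brightest, of the same accession, had differences near 0. Levels on the dimmest Ctsb probe set were near the array's median, at 3.48 ± 0.04 in the mutant and 3.64 ± 0.33 in wild type (SD, n = 5 each), with a difference of -0.16 ± 0.13 (SE). The mean of the 5 probe sets gave a difference of -0.15 (adjusted p = 0.273 over genes). The annotation gives 4 of them, all but the dimmest Ctsb probe set, the same accession, and the stretch each reads is not known here.

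**Figure D4:**
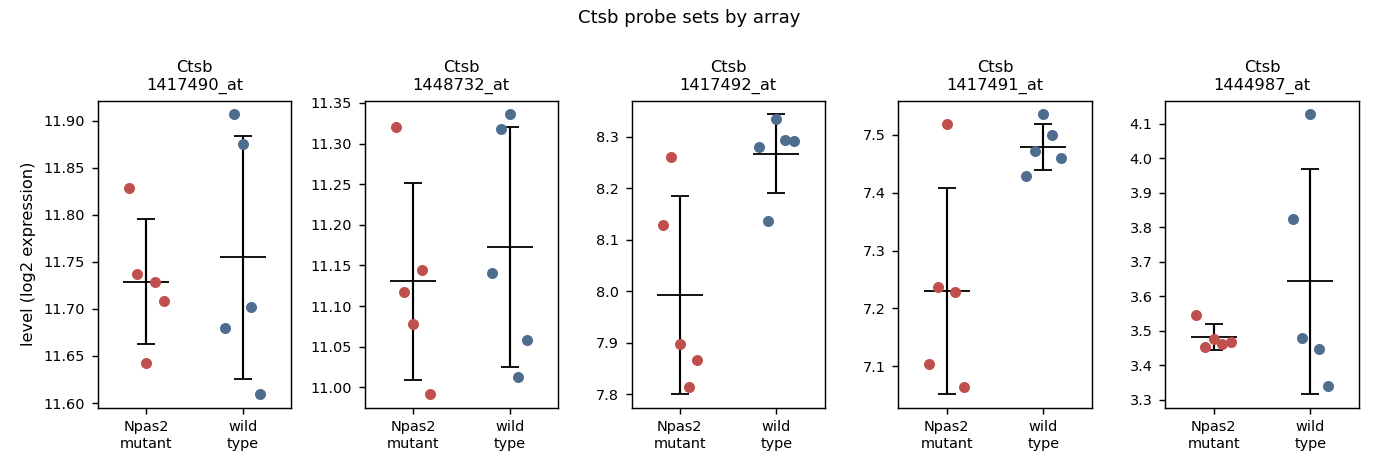
Log2 level of the 5 Ctsb probe sets on each array (points), with mean and SD (bars), for 5 Npas2 mutant arrays on the left and 5 wild-type arrays on the right. Panels run from the brightest probe set to the dimmest, each with its own axis. The groups overlap on all 5, and on the third and the fourth most mutant arrays lie below every wild-type array.

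The other members differed between the groups by less than the spread between arrays. Ctsl (brighter probe set), a broad lysosomal endopeptidase, had log2 levels of 10.69, 10.81, 11.09, 10.95 and 10.85 in the mutant, against 10.92, 10.72, 10.98, 10.99 and 10.94 in wild type, a difference of -0.03 ± 0.08 (SE, limma adjusted p = 0.885). Ctsh (brighter probe set), an aminopeptidase, had 9.01, 9.33, 9.47, 9.33 and 9.31 in the mutant, against 9.28, 9.14, 9.37, 9.49 and 9.49 in wild type, a difference of -0.06 ± 0.10 (adjusted p = 0.773). The groups overlapped on both, and mutant F12 was the lowest of the mutant arrays on both. The difference on the dimmer Ctsh probe set was -0.11 ± 0.17 (SE).

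Ctsc (brightest probe set), dipeptidyl peptidase I, which activates serine proteases of immune granules, had log2 levels of 8.56, 8.35, 8.76, 8.67 and 8.67 in the mutant, against 8.62, 8.33, 8.72, 8.81 and 8.65 in wild type. Its difference was -0.03 ± 0.10 (SE, limma adjusted p = 0.920), and the middle Ctsc probe set had -0.02 ± 0.10. Ctsf (brighter probe set), a cysteine protease that can also process the invariant chain, had 6.38, 6.21, 6.32, 6.41 and 6.29 in the mutant, against 6.10, 6.53, 6.37, 6.47 and 6.40 in wild type, a difference of -0.05 ± 0.08 (adjusted p = 0.776). For both genes the mutant arrays lay within the wild-type range. The 3 probe sets too dim to be tested were the dimmest Ctsc probe set, with 3.11 ± 0.06 in the mutant and 3.16 ± 0.13 in wild type, the dimmer Ctsf probe set, with 2.02 ± 0.04 in the mutant and 1.99 ± 0.01 in wild type, and the dimmer Ctsl probe set, with 2.66 ± 0.05 in the mutant and 2.66 ± 0.08 in wild type (SD, n = 5 each). Exact two-sided permutation tests of these differences gave p = 0.571, 0.0635 and 0.992.

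**Figure D5:**
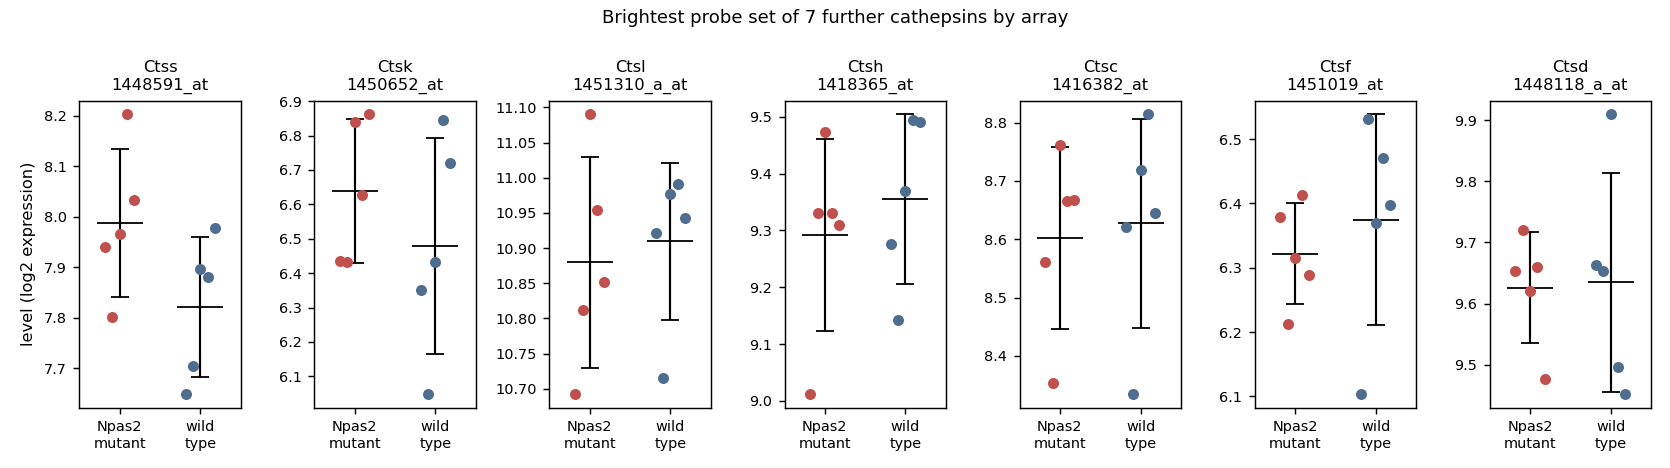
Log2 level of the brightest probe set of Ctss, Ctsk, Ctsl, Ctsh, Ctsc, Ctsf and Ctsd on each array (points), with mean and SD (bars), for 5 Npas2 mutant arrays on the left and 5 wild-type arrays on the right; each panel has its own axis. The groups overlap in all 7 panels, and the largest differences are 0.17 for Ctss and 0.16 for Ctsk.

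Genes that work with the cathepsins were read from lists. Of 13 other lysosomal and related proteases 9 were tested, with a median difference of 0.00. Of these 0 passed the limma test, against 0.215% of all tested probe sets, and 2 had an unadjusted p under 0.05, against 15.3%. The largest differences were those of Bace1, an aspartic protease that cleaves the amyloid precursor, at -0.27 ± 0.07 (SE, adjusted p = 0.121), and Dpp7, a dipeptidyl peptidase, at 0.24 ± 0.13 (adjusted p = 0.385). Among them were the family's further tested members, the serine carboxypeptidase gene Ctsa (-0.16 ± 0.07, SE, adjusted p = 0.288) and the cysteine protease gene Ctso (0.00 ± 0.11). Of the cystatin-type inhibitors 3 were tested and 0 passed (0 with an unadjusted p under 0.05), against the same shares of all tested probe sets. Kng1, kininogen, had 0.17 ± 0.34 (SE) and Cstb, cystatin B, 0.09 ± 0.07, while Cst3, cystatin C, the main secreted inhibitor, had 13.28 ± 0.11 in the mutant and 13.19 ± 0.07 in wild type (SD, n = 5 each).

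The 14 genes of lysosomal sorting and control were all tested on their brightest probe set, with a median difference of 0.02. Of these 0 passed the limma test, against 0.215% of all tested probe sets, and 1 had an unadjusted p under 0.05, against 15.3%. M6pr and Igf2r, the mannose 6-phosphate receptors that carry cathepsins to the lysosome, had -0.04 ± 0.06 and -0.05 ± 0.07 (SE), and Tfeb, the factor that drives lysosomal genes, had 0.01 ± 0.11. The largest differences were those of Gnptg, a subunit of the enzyme that makes the sorting tag, at 0.27 ± 0.16 (adjusted p = 0.436), and Scarb2, a lysosomal membrane protein, at -0.24 ± 0.10 (adjusted p = 0.286). A second Scarb2 probe set was called and went the other way, at 0.37 ± 0.05 (adjusted p = 0.0306), so its direction depends on the probe set.

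The tissue was checked by its markers. On the brightest probe set 0 of the genes in the 16 lists read passed the limma test, against 0.215% of all tested probe sets. An unadjusted p under 0.05 was reached by 5 of 7 brown fat, 3 of 6 smooth muscle, 2 of 4 white fat and 1 of 6 endothelial markers, and by 15.3% of all tested probe sets. Of the 6 smooth muscle markers 5 had a lower mean in the mutant and Des a higher one, with a median difference of -0.12. The largest differences were those of Des (0.48 ± 0.40, SE) and Smtn (-0.33 ± 0.10). Cnn1 (-0.26 ± 0.07) and Myh11 (-0.18 ± 0.06) are named after their values were seen. The groups did not overlap for Myh11, nor for Pecam1, Bace1 (both lower in the mutant) and Elovl3 (higher). Such separation was found on 4.01% of all tested probe sets. The list means ran from 11.24 to 11.69 in the mutant and from 11.35 to 11.67 in wild type. The largest differences of the endothelial, fibroblast and mast cell markers were those of Pecam1 (-0.33) and Kdr (0.18), Pi16 (0.22) and Pdgfra (0.04), and Kit (-0.26) and Cpa3 (0.25). White fat markers held Lep (-0.78) and Cidec (0.28). The 7 brown fat markers were all higher in the mutant, with means from 9.22 to 10.01 in the mutant and from 8.27 to 9.06 in wild type, led by Elovl3 (2.57) and Ucp1 (0.996). Skeletal muscle markers varied most between arrays, with means from 3.41 to 10.82 in the mutant and from 3.22 to 10.34 in wild type (Myh1, 2.91, and Acta1, 1.95). Correlations between arrays over all probe sets lay between 0.988 and 0.996 for arrays of the same group and between 0.986 and 0.996 for arrays of different groups. No scan date or batch is known here. The part that brown fat, skeletal muscle or macrophage RNA has in the cathepsin differences was not tested. The covariate fits cannot settle it for brown fat and macrophages, because both of those means were higher in the mutant.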

How the data were processed

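Per the labels, biotin-labelled total RNA of aorta was put on Affymetrix MOE 430V2 arrays. The deposited values are on a log2 scale, 1 for each probe set and array, already summarised by the authors. Per the submitters' processing notes GCRMA and MAS5 were used, with no version and no role given. The scale was read from the values (1.10 to 14.74, upper quartiles 5.40 to 5.55), and the array number limits the precision. Gene symbols came from the platform annotation, updated by gene identifier to GRCm38.p6 (34754 of 34958 probe sets with 1 gene; 932 had several and 9160 none).

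Values were used as deposited, without 64 control probe sets. Probe sets above their array's median on at least 5 of 10 arrays were tested (22340), mutant minus wild type, with limma 3.58.1 (lmFit, eBayes) under R 4.3.3; tests were two-sided and called at 0.05 after Benjamini-Hochberg adjustment. The code was tested on simulated data. The members, the 16 marker and pathway lists and the naming rule were chosen with earlier results of these data known. The rule named every cathepsin probe set, the 2 members of each list with the largest difference (brightest tested probe set) or those that passed, and the 5 genes most like Ctse. Further genes (M6pr, Igf2r, Tfeb, Cst3, Ctsa, Ctso) were named for their role. Alternatives were the filter, normalisation, variance model, array weights, marker means as covariates and leaving out each array. The groups have no replicate identifier in common, and arrays were not paired.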

Additional observations from a re-analysis of the deposited data

Results flagged for a closer look

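In each group of 5 arrays an array was picked out when its gap to the nearest other, divided by the group's range, exceeded 0.71 (Dixon's test). Of 44 groups examined over the 22 cathepsin probe sets 6 met this, where chance picks out about 1 in 20. For the third Ctsb probe set wild type F14_2 stood at 8.14, below the other wild-type arrays (8.28 to 8.33), and for the dimmest Ctsb probe set mutant F12 stood at 3.55, above the other mutant arrays (3.45 to 3.48). For the middle Ctsc probe set mutant F19 stood at 5.41, above the others (5.15 to 5.21). For the dimmer Ctse probe set mutant F13 stood at 3.50, above the others (3.41 to 3.44). For the dimmer Ctsf probe set mutant F20 stood at 2.09, above the others (2.00 to 2.01). For the brighter Ctsl probe set wild type F14_2 stood at 10.72, below the others (10.92 to 10.99).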

How the results depend on the processing

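The difference of the brighter Ctse probe set kept its direction under every alternative that gave a value. All alternatives reuse the arrays whose values chose the family, so the kept direction carries no weight of its own. The probe set passed the threshold with quantile normalisation, median centring, a trended robust variance and without wild type F11. The mean of both Ctse probe sets also passed (-0.63, limma adjusted p = 0.0457 over genes), but through the brighter one, whose values chose the family. The brighter Ctse probe set did not pass elsewhere. It was at -1.29 without a filter (limma adjusted p = 0.116), -1.29 by analysis of variance per probe set (0.136) and -1.24 with array weights (0.0553). It was at -1.32, -1.29 and -1.36 with the macrophage, brown fat and skeletal muscle means as covariates, the last 2 added after the data were seen. Cathepsin probe sets called numbered 0 in each of these and with the 75th percentile filter, which left out both Ctse probe sets, the dimmest Ctsb probe set and the middle Ctsc probe set as too dim, against 1 in the reported fit. Over all probe sets 48 were called as reported, 17 without a filter, 141 with the 75th percentile, 13 by analysis of variance, and 1, 0 and 7 with the macrophage, brown fat and skeletal muscle covariates. Leaving out 1 array gave 9 to 43 calls, 0 to 1 of them a cathepsin, and Ctse between -1.48 and -1.17. Several other members changed sign, Ctsk and the dimmer Ctsh probe set by the most. Quantile normalisation gave 0.0032 for Ctsd, 0.00067 for Ctsf and 0.030 for the middle Ctsc probe set. The macrophage covariate gave 0.017 for the brightest Ctsb probe set, 0.040 for the next brightest, 0.044 for Ctsd and -0.14 for Ctsk. The brown fat covariate gave 0.11 for the brightest Ctsc probe set, 0.025 for Ctsf, 0.24 for the brighter Ctsh probe set, 0.45 for the dimmer Ctsh probe set and 0.16 for Ctsl, and the skeletal muscle covariate 0.0079 for Ctsd. With 1 array left out, values ranged from -0.062 to 0.012 (the brightest Ctsb probe set), -0.098 to 0.037 (the brightest Ctsc probe set), -0.075 to 0.058 (the middle Ctsc probe set), -0.054 to 0.060 (Ctsd), -0.12 to 0.0069 (the brighter Ctsh probe set), -0.20 to 0.028 (the dimmer Ctsh probe set) and -0.082 to 0.018 (Ctsl). The cause was not tested. No paired analysis was possible because the groups share no replicate identifier.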
